A study of Mus musculus with 4 samples.

Results

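The 34 genes described here encode the enzymes that remove superoxide, hydrogen peroxide and lipid peroxides, the enzymes that make, recycle and use glutathione, and the regulators of their induction. They were chosen by symbol from a list, and all 34 were among the 32285 genes counted. Each was followed in every cell class that marker genes could name in the back of the mouse eye, in Vldlr-/- mice, which lack the very low density lipoprotein receptor, and in wild-type (WT) mice. Cells dissociated from RPE (the retinal pigment epithelium) and choroid were sequenced singly by the 10x Genomics droplet method in 4 groups: Vldlr-/- and WT at 1 month of age, and Vldlr-/- and WT at 2 months of age. Each group was 1 library. The labels name no treatment and no Cre or other driver of the deletion, and the sources used here do not say which strain or sex the mice were or how many were pooled for a library. The series title is about RPE mitochondrial energetics and subretinal fibrosis, so the comparisons asked how the antioxidant genes of RPE and choroidal cells stood in Vldlr-/- mice, against WT mice of the same age. With 1 library per group no difference has a replicate check, and no test was run. The 95% intervals given cover counting error only.

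Superoxide dismutases turn superoxide into hydrogen peroxide, which catalase, glutathione peroxidases and peroxiredoxins then reduce. Glutathione peroxidases draw on glutathione, made from its amino acids by glutamate-cysteine ligase (Gclc and Gclm) and glutathione synthetase (Gss) and returned from its oxidised form by glutathione reductase (Gsr), while most peroxiredoxins draw on thioredoxin, which thioredoxin reductases recharge. Nfe2l2 (Nrf2) is the transcription factor that induces many of these genes, and Keap1 is the adaptor that marks it for degradation. The RPE, a pigmented epithelium that takes up shed photoreceptor outer segments rich in polyunsaturated lipids, is known for a strong antioxidant defence.

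The libraries held 12022513 UMIs (unique molecules) in Vldlr-/- and 11194301 in WT at 1 month, and 16292472 in Vldlr-/- and 23070271 in WT at 2 months. After filtering, 6529 cells fell into 28 clusters, formed without the 34 genes and without 104 related genes, so that a gene's level in a class was not used to form it. RPE-like cells numbered 162 in Vldlr-/- and 232 in WT at 1 month, and 593 in Vldlr-/- and 1361 in WT at 2 months. Their median depth was 1788 UMIs in Vldlr-/- and 2040 in WT at 1 month, and 9494 and 8077 UMIs at 2 months. A shallow cluster, cluster 0, held 71.0% of them in Vldlr-/- and 75.4% in WT at 1 month, and 32.0% and 23.4% at 2 months. All 10 RPE markers were counted in RPE-like cells at 2 months and 9 of 10 at 1 month. Rod-like cells remained in every library although the neural retina was lifted off, and the summed rod markers in RPE-like cells stood at 703 CPM (UMIs scaled to a total of 1000000) in Vldlr-/- and 387 CPM in WT at 1 month, and at 40.7 CPM in Vldlr-/- and 65.5 CPM in WT at 2 months. Vldlr itself checked the labels in RPE-like cells, with 4 UMIs (11.1 CPM) in Vldlr-/- and 77 UMIs (138 CPM) in WT at 1 month, and 216 UMIs (27.1 CPM) in Vldlr-/- and 2639 UMIs (181 CPM) in WT at 2 months. The libraries of each age were counted with their own Cell Ranger version, per the file headers, so age and software version cannot be told apart. Levels are CPM of the UMIs summed over a class in a library, and they are compared only within a gene, since 3′ tags carry no length scaling.

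RPE-like cells carried the highest level of 10 of the 34 genes in both 2-month libraries, among the 5 classes compared at that age. These were Sod1, Sod2, Gpx4, Prdx2, Prdx6, Txn2, Gclm, Gsta4, Gstm5 and Nqo1. Macrophage-like cells were highest for 8 (Gpx3, Prdx1, Txnrd1, Txnrd2, Srxn1, Gsr, Nfe2l2 and Hmox1), fibroblast-like cells for 7 (Gpx7, Gpx8, Prdx4, Txn1, Gclc, Gstm1 and Gstp1) and mural-like cells for Mgst3. For the other 8 genes the leading class differed between the Vldlr-/- and the WT library. The share of all genes highest in each class was not measured, so these counts do not show an excess in any class. Unnamed clusters were left out of this ranking. Cluster 22 (18 cells in Vldlr-/- and 78 in WT) exceeded RPE-like cells in both libraries for Prdx2, Prdx6 and Gclm. It also exceeded macrophage-like cells for Gpx3. Cluster 17 (15 cells in Vldlr-/- and 97 in WT) exceeded RPE-like cells in both libraries for Sod2, Prdx6, Gclm, Gsta4 and Gstm5. Melanocyte-like cells of the 2-month Vldlr-/- library, 32 cells with no counterpart of at least 30 in WT, had more Gsta4 than its RPE-like cells (453 against 391 CPM).

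**Figure D1:**
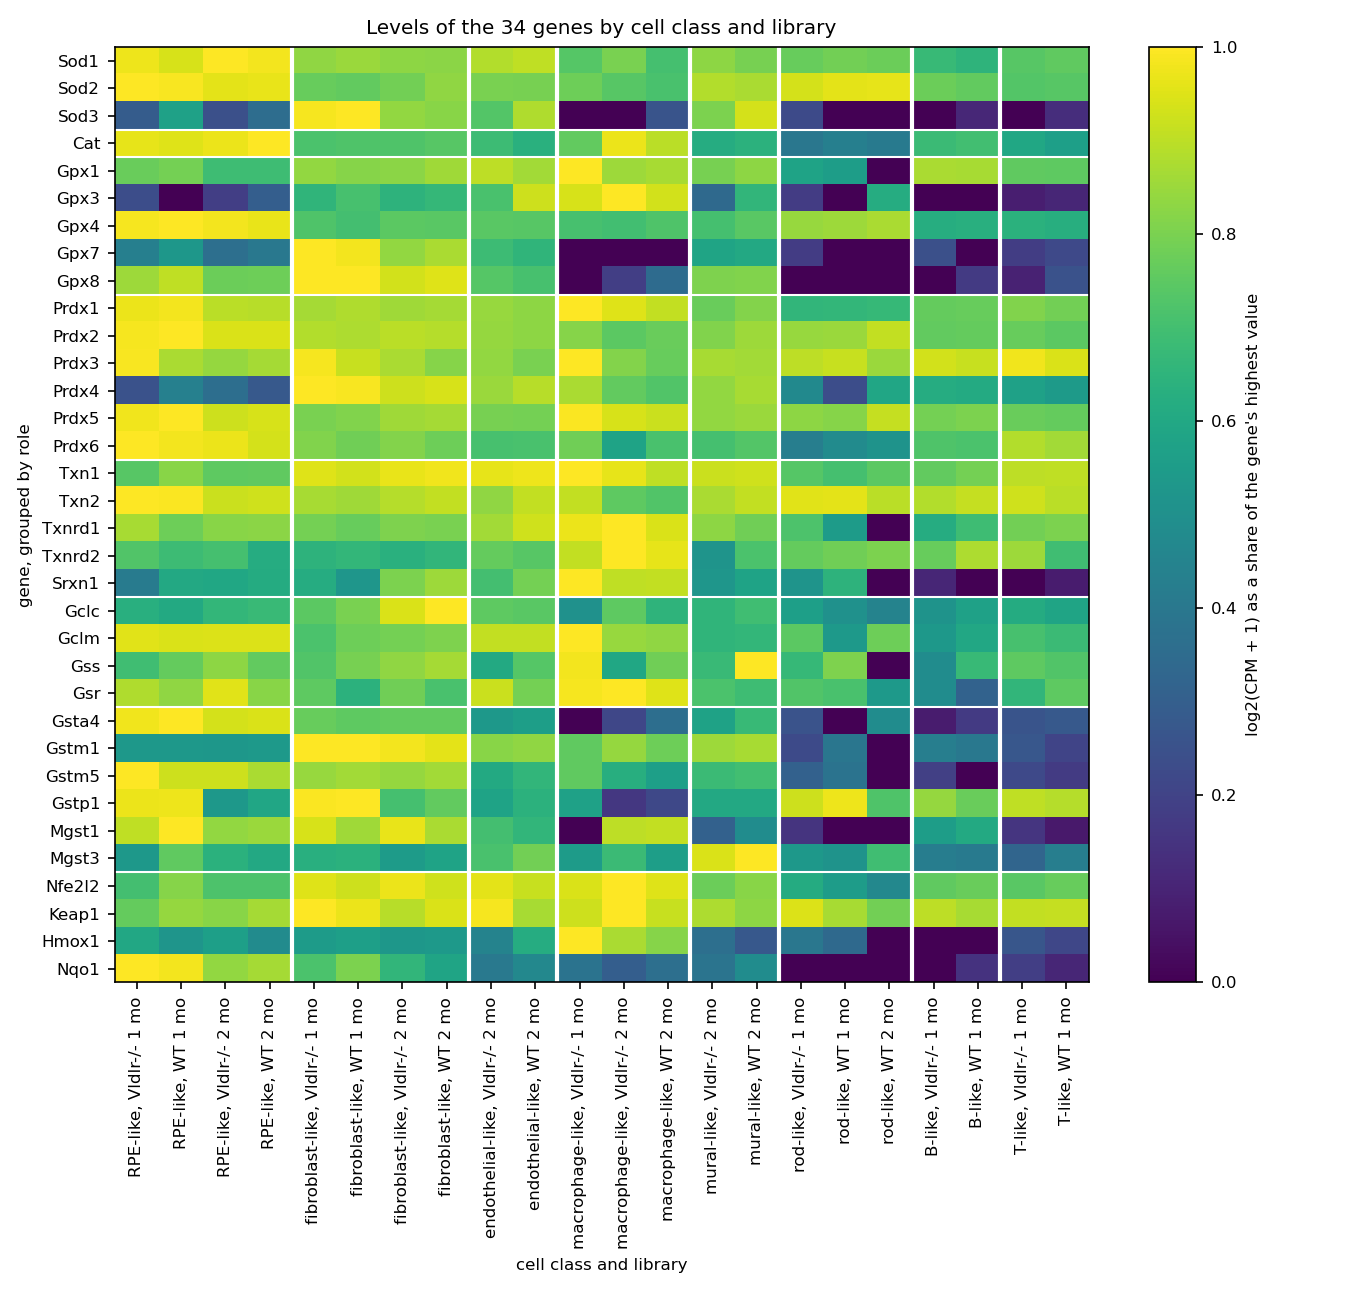
Levels of the 34 genes (rows, grouped by role) in cell classes of each library with at least 30 cells (columns), as log2(CPM + 1) divided by the gene's highest value in the plot. Gpx4, Cat, Gsta4 and Nqo1 are near their maximum across the 4 RPE-like columns, with macrophage-like cells of the 2-month Vldlr-/- library close to them for Cat, while Sod3, Gpx7 and Gpx8 are highest in fibroblast-like columns at 1 month.

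Gpx4, the glutathione peroxidase that reduces lipid hydroperoxides within membranes, had the class pattern most firmly counted. In RPE-like cells it stood at 4698 CPM in Vldlr-/- and 5368 CPM in WT at 1 month, and at 4633 CPM in Vldlr-/- and 4053 CPM in WT at 2 months. Those levels were 6.82 to 13.1 times the median of the other classes of the same library. Rod-like cells came next at 1 month, with 1407 CPM in Vldlr-/- and 1549 CPM in WT. Catalase (Cat), the peroxisomal enzyme that splits hydrogen peroxide, was at 338 CPM in Vldlr-/- and 313 CPM in WT at 1 month, and at 350 CPM in Vldlr-/- and 422 CPM in WT at 2 months, 5.62 to 9.26 times the other classes' median. Gsta4, a glutathione transferase that clears 4-hydroxynonenal from oxidised lipids, was at 518 CPM in Vldlr-/- and 594 CPM in WT at 1 month and at 391 CPM in Vldlr-/- and 416 CPM in WT at 2 months. Fibroblast-like cells, the next class with all 4 libraries, held 135 and 126 CPM of Gsta4 in Vldlr-/- and 121 and 128 CPM in WT, 1 month before 2 months. Nqo1, a quinone reductase induced by Nfe2l2, reached 280 CPM in Vldlr-/- and 256 CPM in WT RPE-like cells at 1 month, and 111 CPM in Vldlr-/- and 131 CPM in WT at 2 months. The level of Nqo1 was lower in the 2-month libraries of both genotypes. Age and software version cannot be told apart there, and RPE-like depth and cluster shares differed between the ages too.

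Other members marked the choroidal stroma, vessels and immune cells. Extracellular superoxide dismutase (Sod3) was at 86.8 CPM in Vldlr-/- and 93.2 CPM in WT fibroblast-like cells at 1 month and at 43.7 CPM in Vldlr-/- and 40.9 CPM in WT at 2 months. At 2 months mural-like cells, the pericytes and smooth muscle of vessels, held 37.1 CPM of Sod3 in Vldlr-/- and 68.9 CPM in WT, whereas the enzyme's RNA was almost absent from macrophage-like cells, with 0 UMIs in Vldlr-/- (an exact upper limit of 5.38 CPM) and 1 UMI in WT. Gpx7, a peroxidase of the endoplasmic reticulum, was at 76.4 CPM in Vldlr-/- and 70.3 CPM in WT fibroblast-like cells at 1 month and at 37.2 CPM in Vldlr-/- and 43.8 CPM in WT at 2 months. Macrophage-like cells had no Gpx7 UMI in any library with at least 30 of them. Mgst3, a membrane-bound glutathione transferase, was at 117 CPM in Vldlr-/- and 157 CPM in WT mural-like cells at 2 months, 4.83 and 7.68 times the other classes' median. Hmox1, the haem-degrading oxygenase, was at 189 CPM in macrophage-like cells of the 1-month Vldlr-/- library, and at 96.3 CPM in Vldlr-/- and 73.0 CPM in WT at 2 months. Mgst1 passed the same 4-fold mark in B-like cells at 1 month with only 16.4 CPM in Vldlr-/- and 21.4 CPM in WT, because most classes held almost none. RPE-like and fibroblast-like cells of both genotypes held more Mgst1 than that.

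In RPE-like cells the members did not move to one side at 1 month. At 2 months a larger share of them than of all genes was lower in Vldlr-/-. At 1 month 23 of the 34 had at least 30 UMIs over both libraries, 11 of them higher and 12 lower in Vldlr-/-, with a median log2 ratio of Vldlr-/- to WT of -0.01, against 0.02 for all 3480 genes compared. At 2 months all 34 could be compared, 13 higher and 21 lower, with a median of -0.03 against 0.07 for 11778 genes. Over all genes, 48.4% were lower in Vldlr-/- at 1 month, against 52.2% of the members, and 39.8% at 2 months, against 61.8% of the members. At least 2-fold apart was 1 member at 1 month (lower, where 2.67% of all genes were that much lower and 3.33% higher) and 2 members at 2 months (both lower, where 1.02% of all genes were that much lower and 3.09% higher). Of the 23 members compared at both ages, 4 were higher in Vldlr-/- at both and 7 lower at both, and none lay 1.5-fold or more to one side at each age.

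**Figure D2:**
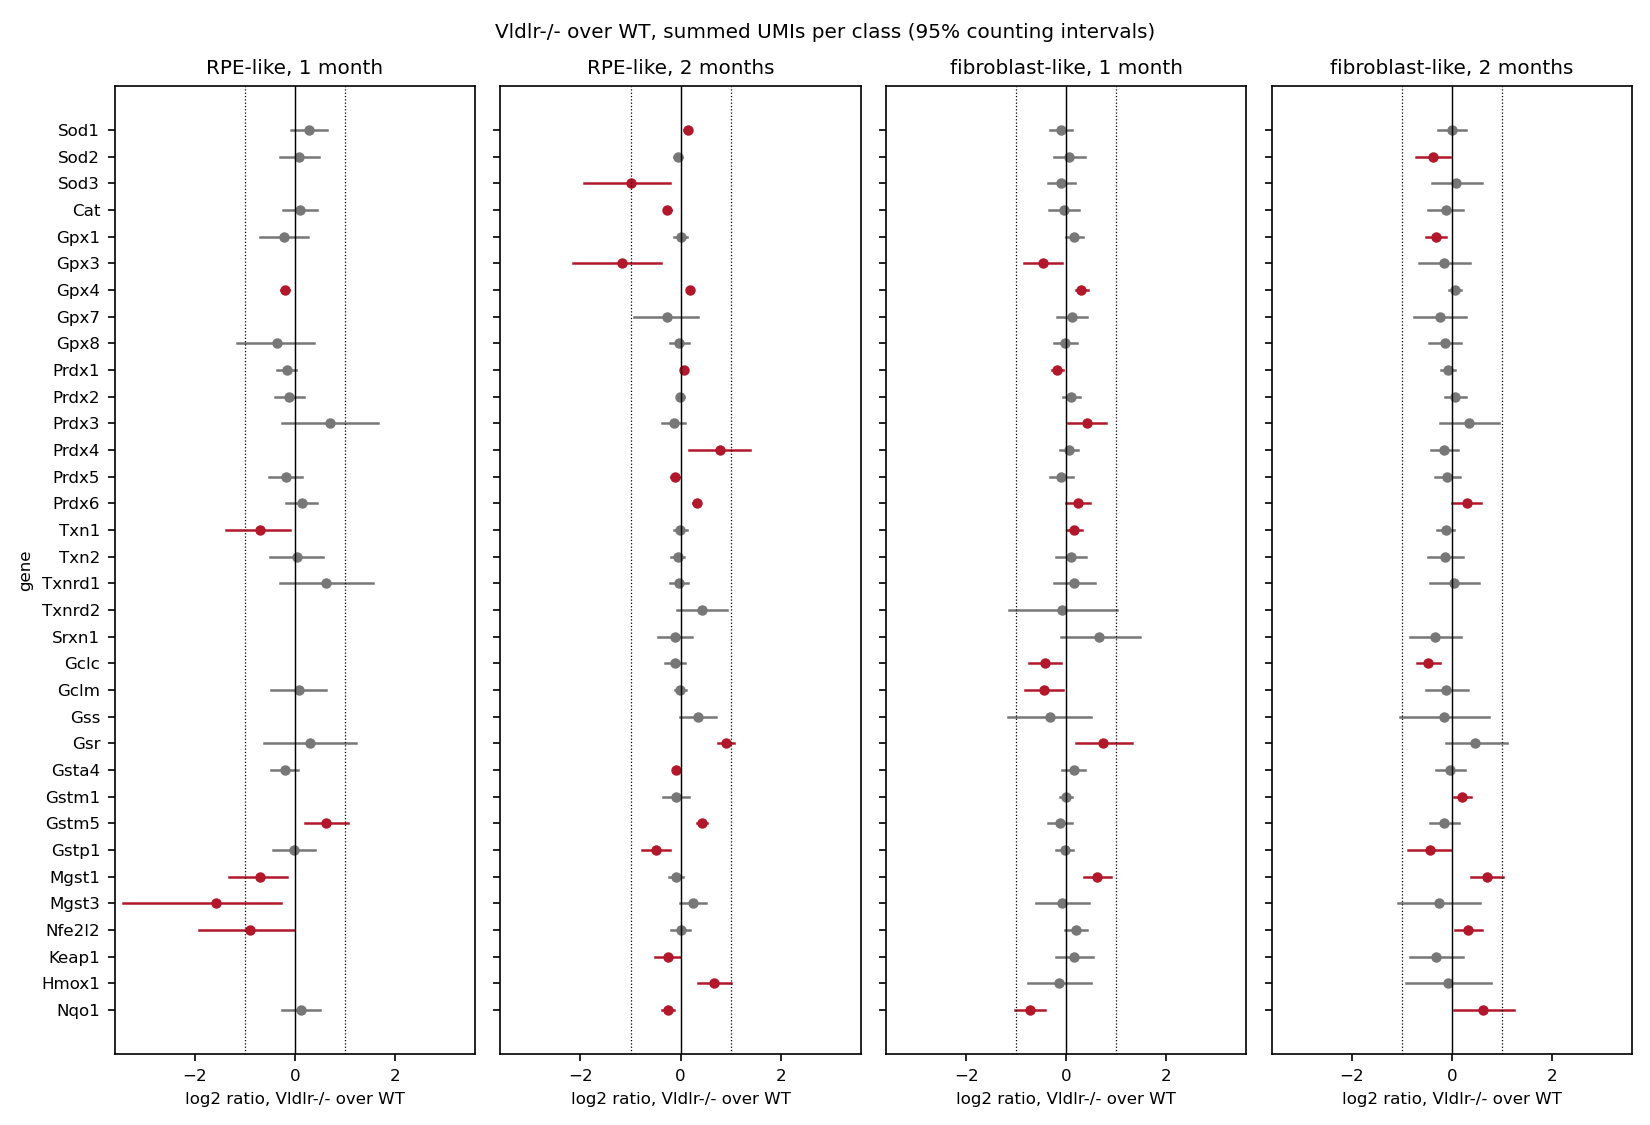
Log2 ratios of Vldlr-/- over WT (points) with 95% counting intervals (lines) for each gene in RPE-like and fibroblast-like cells at each age, drawn red where the interval leaves out 0; dotted lines mark 2-fold and genes under 30 UMIs are left blank. Most points lie between the dotted lines, with Mgst3 (RPE-like, 1 month) and Gpx3 (RPE-like, 2 months) beyond the lower one.

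The 3 members past 2-fold in RPE-like cells were thinly counted there. Mgst3 was at 13.8 CPM (5 UMIs) in Vldlr-/- and 44.8 CPM (25 UMIs) in WT at 1 month, a log2 ratio of -1.58 (interval -3.44 to -0.28). Its 2-month levels, 24.2 CPM in Vldlr-/- and 20.4 CPM in WT, lay close together. Sod3 was at 2.01 CPM (16 UMIs) in Vldlr-/- and 4.12 CPM (60 UMIs) in WT at 2 months, with an interval of -1.93 to -0.22 for the log2 ratio, which was -0.63 among barcodes poor in the nuclear RNA Malat1. The plasma glutathione peroxidase Gpx3 was at 1.88 CPM (15 UMIs) in Vldlr-/- and 4.39 CPM (64 UMIs) in WT, a log2 ratio of -1.18 (-2.14 to -0.39). At 1 month Sod3 was at 2.77 CPM (1 UMI) in Vldlr-/- and 12.5 CPM (7 UMIs) in WT, and Gpx3 was counted by 1 UMI in Vldlr-/- and 0 UMIs in WT (an exact upper limit of 6.61 CPM), too few to compare. Both stood far lower in RPE-like cells than in cluster 22, an unnamed cluster led by Penk, Optc and Crhbp that held 18 cells in Vldlr-/- and 78 in WT. That cluster carried 3905 CPM of Gpx3 and 326 CPM of Sod3 in Vldlr-/-, and 6957 CPM of Gpx3 and 276 CPM of Sod3 in WT. Free RNA was taken as a share of the summed kept cells, 1.33% for RPE-like cells in Vldlr-/- and 3.57% in WT. Gpx3 over those kept cells was at 119 CPM in Vldlr-/- and 391 CPM in WT. Subtracting that share removed all RPE-like Gpx3 in WT and most of it in Vldlr-/-. The resulting log2 ratio of 3.37 rests on the added counts and is no measured reversal. The direction of Gpx3 in RPE-like cells was not settled.

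At 2 months 5 of the 34 members lay at least 1.5-fold apart in RPE-like cells, where 12.9% of all genes did, and the highest ratio was that of glutathione reductase (Gsr), 0.90. Gpx4 was higher in Vldlr-/- by a log2 ratio of 0.19 (0.17 to 0.21), whereas at 1 month it was lower, -0.19 (-0.28 to -0.11). The 2-month Gpx4 ratio was 0.00 after every cell had been thinned to the same depth. It was 0.01, 0.06, 0.26 and 0.27 in RPE-like clusters 0, 1, 2 and 8, and 8 of 16 alternatives stayed inside its interval. Cat, at a log2 ratio of -0.27 (-0.33 to -0.20), was lower in Vldlr-/- in each of the 4 RPE-like clusters, at -0.12 to -0.50, although in the fourth the interval reached 0.00. Prdx6, a peroxiredoxin that also acts on phospholipids, stood at 353 CPM in Vldlr-/- and 284 CPM in WT, a log2 ratio of 0.32 (0.25 to 0.39). The transferase Gstm5 was higher in Vldlr-/- at both ages, at 269 CPM against 174 CPM in WT at 1 month (0.63, 0.21 to 1.05) and 176 CPM against 132 CPM in WT at 2 months (0.42, 0.32 to 0.52). By cluster the 1-month Gstm5 ratio was 0.77 in cluster 0 and 0.26 (-0.52 to 1.01) in cluster 2. At 2 months it was 0.09 (-0.30 to 0.46) in cluster 0, and 0.27, 0.57 and 0.62 in clusters 1, 2 and 8. Prdx4, the peroxiredoxin of the secretory pathway, had 5.78 CPM in Vldlr-/- and 3.36 CPM in WT at 2 months, a log2 ratio of 0.78 (0.17 to 1.39) on 46 and 49 UMIs. At 1 month Mgst1 and the cytosolic thioredoxin Txn1 were lower in Vldlr-/-, each by -0.70, with 102 against 168 CPM in WT for Mgst1 and 83.0 against 136 CPM in WT for Txn1. Their 2-month ratios were -0.09 and -0.01, with intervals that include 0. The 1-month Mgst1 ratio was -0.57 (-1.24 to 0.04) among Malat1-poor barcodes, -0.72 (-1.55 to 0.01) in cluster 0, -1.02 with thinned cells and -1.20 in barcodes with at least 1000 genes.

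RPE-like barcodes differed in nuclear RNA between the 2-month libraries. Malat1, a nuclear RNA, was under 1000 CPM in 71.3% of RPE-like barcodes in Vldlr-/- and 88.0% in WT. The members' median log2 ratio was -0.10 among barcodes under that level and 0.11 among those at or above it, beside -0.04 and 0.00 for all genes compared. The largest of the 4 RPE-like clusters was cluster 0 in Vldlr-/- (32.0% of RPE-like cells), which was shallow and led by Lars2 and Gm42418, and cluster 1 in WT (39.5%). By cluster, the members' median log2 ratio at 2 months was -0.13, -0.17, 0.05 and 0.15 in clusters 0, 1, 2 and 8. For all genes it was -0.11, -0.03, -0.01 and 0.00. The count of members 2-fold apart with equally weighted clusters is given below. Beyond these splits and that weighting, the part of these shares in the members' ratios was not tested.

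The Nfe2l2 axis showed no common direction in RPE-like cells. Nfe2l2 stood at 38.8 CPM (14 UMIs) in Vldlr-/- and 73.4 CPM (41 UMIs) in WT at 1 month, a log2 ratio of -0.89 whose interval runs from -1.91 to -0.02 and which ranged from -1.23 to -0.14 over 12 alternatives, and at 43.6 CPM in Vldlr-/- and 43.5 CPM in WT at 2 months. Keap1 was at 19.4 CPM in Vldlr-/- and 26.9 CPM in WT at 1 month and was counted by 199 UMIs in Vldlr-/- and 435 UMIs (29.8 CPM) in WT at 2 months, a 2-month log2 ratio of -0.25 (-0.51 to -0.01). Hmox1 was the induced gene with the largest RPE-like difference at 2 months, 18.2 CPM in Vldlr-/- and 11.5 CPM in WT, a log2 ratio of 0.67 (0.34 to 1.00). It was 0.80 among Malat1-poor barcodes and 0.28, with an interval that includes 0, among Malat1-rich ones. At 1 month Hmox1 had 8 UMIs in each library (22.1 CPM in Vldlr-/- and 14.3 CPM in WT), too few to compare.

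Of the induced genes, Nqo1, Srxn1, Txnrd1, Gclc and Gclm lay nearer to WT than Hmox1 in RPE-like cells at 2 months. Nqo1 was slightly lower in Vldlr-/-, -0.25 (-0.37 to -0.13). Srxn1 (sulfiredoxin, which repairs overoxidised peroxiredoxins) was at 13.8 CPM in Vldlr-/- and 15.0 CPM in WT, and Txnrd1, the cytosolic thioredoxin reductase, at 48.5 CPM in Vldlr-/- and 49.5 CPM in WT. For glutamate-cysteine ligase, the catalytic subunit gene Gclc was at 36.5 CPM in Vldlr-/- and 39.5 CPM in WT, and the modifier gene Gclm at 126 CPM in Vldlr-/- and 127 CPM in WT. The intervals of these 4 ratios include 0, and span at most -0.46 to 0.22. At 1 month Srxn1 was at 5.54 CPM in Vldlr-/- and 14.3 CPM in WT, Txnrd1 at 60.9 and 39.4 CPM, Gclc at 30.5 and 26.9 CPM, and Gclm at 133 and 125 CPM, Vldlr-/- before WT, each on at most 70 UMIs a library.

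Nfe2l2 acts with small Maf proteins at the antioxidant response element, whose core is TGACNNNGC. RefSeq promoter windows (GRCm38.p6, from 250 bases before to 50 bases after a start) were at hand for 28 of the 34 genes, in 35 windows. On either strand a looser form, TGANNNNGC, was found in 13 of the 35 windows (37.1%) and in 41.3% of all 32851 windows of the same length. The core TGACNNNGC was found in 8 of the 35 windows (22.9%) and in 12.4% of all windows. These letters are thus also common elsewhere, and a match is a description, not a site. The 8 genes were Gclm, Gstm5, Mgst1, Nfe2l2, Prdx1, Sod1, Srxn1 and Txnrd1. Stretches of 4 of them are given because Nfe2l2 is the regulator itself, Gclm and Txnrd1 were the members past 2-fold in rod-like cells, and Prdx1 showed ratios near 0 in RPE-like cells. Capitals mark the core, which reads as its reverse complement in the last 3, and all are written 5′ to 3′ along the gene.
Nfe2l2, chr2:75704879-75704913, minus strand: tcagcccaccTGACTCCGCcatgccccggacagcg
Gclm, chr3:122245407-122245447, plus strand: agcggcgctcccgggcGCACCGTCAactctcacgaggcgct
Txnrd1, chr10:82859098-82859138, plus strand: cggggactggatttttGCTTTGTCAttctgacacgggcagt
Prdx1, chr4:116685450-116685490, plus strand: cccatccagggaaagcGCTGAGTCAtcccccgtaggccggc

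Glutathione reductase (Gsr, ENSMUSG00000031584, GRCm38 chromosome 8, 33652523 to 33698163, plus strand) showed the widest contrast between cell types. In RPE-like, fibroblast-like and endothelial-like cells it was higher in Vldlr-/-, and in cluster 7, an unnamed cluster of mostly 1-month cells, it was far lower in Vldlr-/-. Cluster 7 was led by Ear2, Lst1, Lyz2, Ifitm6 and Chil3, of which Lyz2 is a lysozyme of myeloid cells, and had 5 of the 9 macrophage markers detected, which left it unnamed. It held 104 cells in Vldlr-/- and 134 in WT at 1 month. There Gsr was at 116 CPM (128 UMIs) in Vldlr-/- and 616 CPM (915 UMIs) in WT, a log2 ratio of -2.41 (-2.69 to -2.14). Of the 25 members compared in that cluster it alone lay 2-fold apart, where 2.24% of 7091 genes were that much lower and 1.17% higher in Vldlr-/-.

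The difference in cluster 7 was spread over its cells. A Gsr UMI was found in 60 of 104 cells in Vldlr-/- (57.7%, exact interval 47.6 to 67.3%) and in 127 of 134 in WT (94.8%, 89.5 to 97.9%), with a median of 1 UMI per cell in Vldlr-/- and 6 in WT. B-like cells, a class with little Gsr, had a UMI in 4.56% of cells in Vldlr-/- and 1.96% in WT, at median depths of 5997 UMIs in Vldlr-/- and 6138 in WT. Median depth in cluster 7 was 9593 UMIs in Vldlr-/- and 10072 in WT, and after thinning every cell to 2000 UMIs the share with a Gsr UMI was 13.0% of 100 cells in Vldlr-/- and 63.0% of 127 cells in WT. At 2 months cluster 7 had only 2 cells in Vldlr-/-, and its 11 WT cells again held much Gsr, at 902 CPM.

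Neutrophil-like cells were too few to compare but lay the same way at both ages. At 1 month Gsr was at 142 CPM in 6 Vldlr-/- cells and 1299 CPM in 3 WT cells. At 2 months no Gsr UMI was counted in 7 Vldlr-/- cells, an exact upper limit of 141 CPM, against 1399 CPM (51 UMIs, found in all 8 cells) in WT. T-like cells at 1 month were lower in Vldlr-/- as well, 19.4 CPM against 30.2 CPM in WT, a log2 ratio of -0.63 (-1.29 to -0.03). In NK-like cells, 24 of which were in the Vldlr-/- library, Gsr was at 9.64 CPM in Vldlr-/- and 30.5 CPM in WT.

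RPE-like Gsr was at 55.4 CPM in Vldlr-/- and 44.8 CPM in WT at 1 month, 0.31 with an interval of -0.62 to 1.21, and at 78.6 CPM (626 UMIs) in Vldlr-/- and 42.1 CPM (613 UMIs) in WT at 2 months, a log2 ratio of 0.90 (0.74 to 1.07). At 2 months all 4 RPE-like clusters shared the direction, at 0.77, 0.88, 1.04 and 1.12 for clusters 0, 1, 2 and 8, and so did barcodes poor (0.92) and rich (1.08) in Malat1. In fibroblast-like cells Gsr was at 30.3 CPM in Vldlr-/- and 18.0 CPM in WT at 1 month (0.74, 0.20 to 1.32), and at 35.2 CPM in Vldlr-/- and 25.1 CPM in WT at 2 months (0.47, -0.12 to 1.11). When cells were thinned to equal depth, the fibroblast-like ratio was 0.06 at 1 month and 1.08 at 2 months. Endothelial-like cells at 2 months held 67.0 CPM in Vldlr-/- and 36.6 CPM in WT (0.86, 0.30 to 1.48), and macrophage-like cells 96.3 CPM in Vldlr-/- and 77.5 CPM in WT (0.30, with an interval that includes 0). Of 9 comparisons that counted Gsr well enough, 7 were higher and 2 lower in Vldlr-/-.

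**Figure D3:**
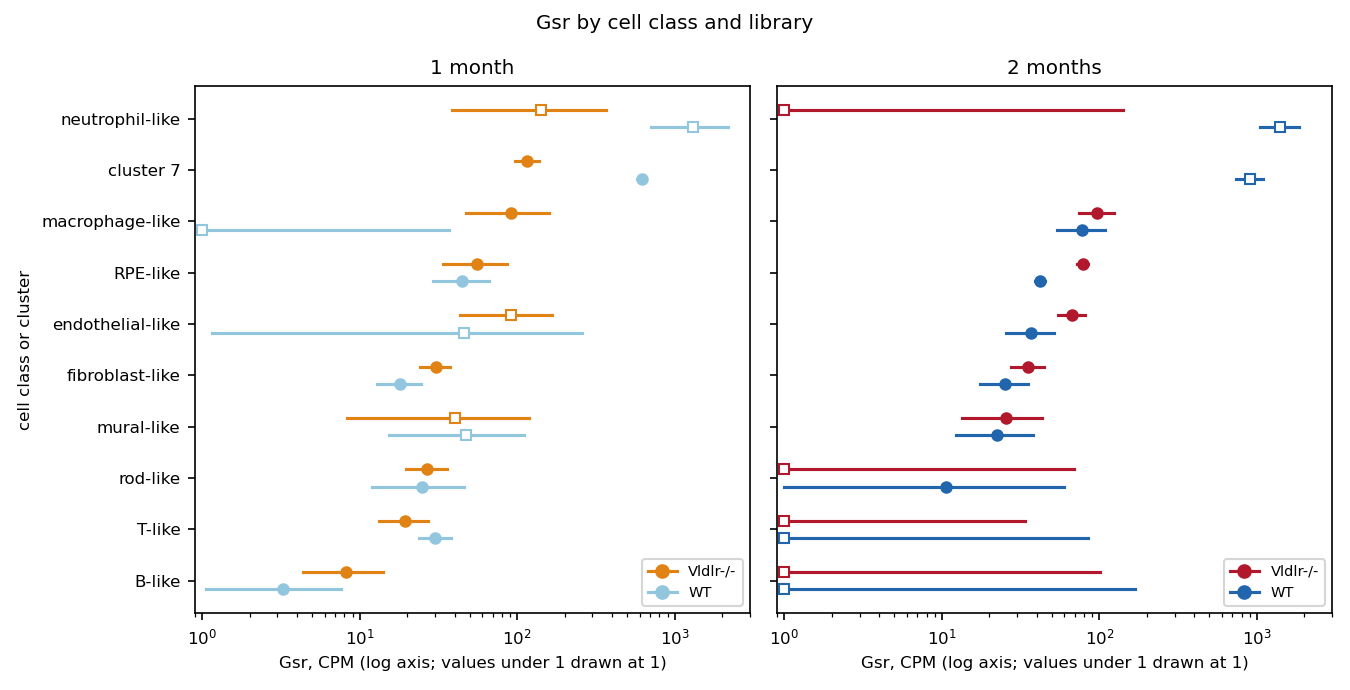
Gsr level in CPM (log axis) by cell class or cluster at 1 month (left) and 2 months (right), Vldlr-/- above WT in each row, with exact 95% Poisson intervals; open squares are classes under 30 cells. Neutrophil-like cells and cluster 7 lie far lower in Vldlr-/- than in WT, and RPE-like and endothelial-like cells of the 2-month libraries lie higher in Vldlr-/-.

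Fibroblast-like cells had no member 2-fold apart at either age. At 1 month 34 members were compared, 17 higher and 17 lower in Vldlr-/-, with a median log2 ratio of 0.02 against 0.03 for 10900 genes, of which 1.83% were at least 2-fold higher and 1.68% lower. At 2 months 33 were compared, 12 higher and 21 lower, with a median of -0.11 against 0.01 for 9912 genes, of which 2.42% were at least 2-fold higher and 1.34% lower. By any amount, 45.6% of all genes were lower in Vldlr-/- at 1 month and 49.0% at 2 months, against 50.0% and 63.6% of the members. Fibroblast-like cells came mostly from cluster 3 in both 1-month libraries and from cluster 6 in both 2-month libraries. Mgst1, a microsomal transferase, was higher in Vldlr-/- at both ages, 123 CPM against 80.0 CPM in WT at 1 month (0.62, 0.36 to 0.89) and 141 CPM against 86.9 CPM in WT at 2 months (0.70, 0.39 to 1.02). Nqo1 lay on opposite sides, with 55.5 CPM in Vldlr-/- and 91.9 CPM in WT at 1 month (-0.73, -1.03 to -0.42) and 40.2 CPM in Vldlr-/- and 25.9 CPM in WT at 2 months (0.62, with an interval that leaves out 0). Gclc was lower in Vldlr-/- at both ages, 58.6 CPM against 78.7 CPM in WT at 1 month (-0.42, -0.74 to -0.11) and 173 CPM against 238 CPM in WT at 2 months (-0.47, -0.69 to -0.24). Gclm was lower in Vldlr-/- at 1 month, 38.7 CPM against 52.7 CPM in WT (-0.45), and its 2-month interval includes 0.

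Of the regulators in fibroblast-like cells, Nfe2l2 was at 148 CPM in Vldlr-/- and 130 CPM in WT at 1 month (0.19, -0.02 to 0.41) and at 165 CPM in Vldlr-/- and 131 CPM in WT at 2 months (0.33, 0.06 to 0.60). Keap1 was at 51.3 CPM in Vldlr-/- and 45.7 CPM in WT at 1 month and at 33.1 CPM in Vldlr-/- and 40.9 CPM in WT at 2 months, with both intervals including 0. Hmox1 was at 16.7 CPM in Vldlr-/- and 18.5 CPM in WT at 1 month and at 15.1 CPM in Vldlr-/- and 15.8 CPM in WT at 2 months. These regulators and Hmox1 stayed within 1.5-fold of WT at either age.

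Endothelial-like cells at 2 months (95 in Vldlr-/- and 74 in WT) had 3 members at least 2-fold lower in Vldlr-/- and none that much higher, of 31 compared, where 2.05% of 8592 genes were that much lower and 3.15% higher. Sod3 was at 26.8 CPM (40 UMIs) in Vldlr-/- and 53.9 CPM (50 UMIs) in WT, with an interval of -1.65 to -0.38 for the log2 ratio, and was found in 16 cells of each library. Hmox1 was at 9.38 CPM (14 UMIs) in Vldlr-/- and 24.8 CPM (23 UMIs) in WT, a log2 ratio of -1.38 (-2.47 to -0.38), the opposite direction to RPE-like cells. The 14 UMIs in Vldlr-/- came from 11 cells and the 23 in WT from only 3 cells. Gpx3 was at 55.6 CPM (83 UMIs) in Vldlr-/- and 186 CPM (173 UMIs) in WT, a log2 ratio of -1.74 (-2.14 to -1.36). One barcode decided the size of the Gpx3 difference. In WT 1 barcode held 86 of the 173 Gpx3 UMIs and 52 of the 53 UMIs of Penk, a leading gene of cluster 22. Without it the WT level was 96.7 CPM and the log2 ratio -0.80, no longer 2-fold, and 1 of the 3 members remained 2-fold apart. The members' median was -0.02, against 0.05 for all genes, with 15 members higher and 16 lower in Vldlr-/-. Of all genes 44.5% were lower in Vldlr-/- endothelial-like cells, against 51.6% of the members. Keap1 was higher in Vldlr-/- in these cells, 48.2 CPM against 30.2 CPM in WT (0.66, 0.03 to 1.36), while it was lower in cluster 7 at 1 month, 28.9 CPM against 45.8 CPM in WT (-0.65, -1.32 to -0.04).

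**Figure D4:**
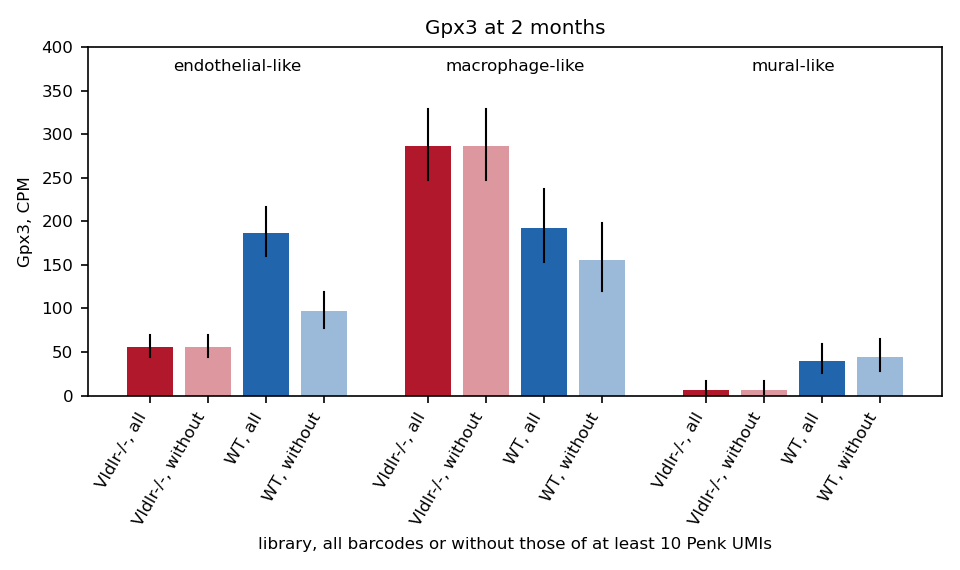
Gpx3 level in CPM at 2 months (bars) with exact 95% Poisson intervals (lines) in 3 classes, Vldlr-/- left of WT, for all barcodes (full colour) and without barcodes of at least 10 Penk UMIs (pale). Endothelial-like Gpx3 in WT is at 96.7 CPM without 1 barcode and 186 CPM with it, while macrophage-like Gpx3 stays higher in Vldlr-/-.

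Macrophage-like and mural-like cells leaned in opposite directions at 2 months. In macrophage-like cells (55 in Vldlr-/- and 57 in WT) 18 of 24 members were higher in Vldlr-/-, with a median log2 ratio of 0.34 against 0.03 for 5162 genes. These cells had a median depth of 10723 UMIs in Vldlr-/- and 6278 UMIs in WT, and Malat1 was under 1000 CPM in 7.27% of them in Vldlr-/- and 17.5% in WT. With cells thinned to equal depth the members' median was 0.24. Cat was at 353 CPM in Vldlr-/- and 223 CPM in WT (0.66, 0.32 to 1.01), and Prdx1 at 893 CPM in Vldlr-/- and 645 CPM in WT (0.47, 0.26 to 0.68). Gpx3 was at 286 CPM in Vldlr-/- and 192 CPM in WT (0.57, 0.20 to 0.96), and at 204 CPM in 34 cells of the 1-month Vldlr-/- library. Prdx6 was the exception past 2-fold, with 32.1 CPM (22 UMIs) in Vldlr-/- and 73.0 CPM (32 UMIs) in WT, a log2 ratio of -1.17 (-2.04 to -0.36), where 3.27% of genes were that much lower and 3.82% higher. RPE markers summed to 514 CPM in Vldlr-/- and 2732 CPM in WT macrophage-like cells, and RPE-like cells held 353 CPM of Prdx6 in Vldlr-/- and 284 CPM in WT. With free RNA subtracted the Prdx6 ratio was -1.21, and over 10 alternatives it ranged from -1.21 to -1.03. The subtraction used a single free-RNA share for each class and library, not a share for RPE RNA alone. The part of RPE RNA in the Prdx6 ratio was therefore not tested.

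In mural-like cells (46 in Vldlr-/- and 55 in WT) 19 of 25 members were lower in Vldlr-/-, with a median log2 ratio of -0.21 against 0.03 for 5804 genes. Of all genes 46.7% were lower in Vldlr-/-, against 76.0% of the members. None was 2-fold apart, where 2.58% of genes were that much lower and 2.31% higher. Sod3 was at 37.1 CPM in Vldlr-/- and 68.9 CPM in WT (-0.87, -1.75 to -0.08), Gsta4 at 39.1 CPM in Vldlr-/- and 73.7 CPM in WT (-0.90, -1.75 to -0.13), and Gpx4 at 428 CPM in Vldlr-/- and 595 CPM in WT (-0.47, -0.72 to -0.23). Gsta4 and Gpx4 were RPE-rich genes, and RPE markers summed to 2406 CPM in Vldlr-/- and 5729 CPM in WT mural-like cells. Their part in these ratios was not tested.

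Rod-like cells at 1 month (346 in Vldlr-/- and 100 in WT) had 2 members past 2-fold of 17 compared, both higher in Vldlr-/-, where 5.54% of 7570 genes were that much higher and 0.859% lower. Gclm was at 45.1 CPM (77 UMIs) in Vldlr-/- and 15.0 CPM (6 UMIs) in WT, a log2 ratio of 1.48 (0.40 to 3.08). Txnrd1 was at 29.3 CPM (50 UMIs) in Vldlr-/- and 12.5 CPM (5 UMIs) in WT, 1.10 with an interval of -0.09 to 2.91. The rod-like cells were split differently over their 2 clusters, with 82.7% in Vldlr-/- and 57.0% in WT in cluster 5, and 17.3% in Vldlr-/- and 43.0% in WT in the shallower cluster 13. The members' median was 0.05, as for all genes. In B-like and T-like cells of the 1-month libraries no member was 2-fold apart. Of 22 members compared in B-like cells (background 1.16% higher and 1.16% lower) the median was -0.06, and of 22 in T-like cells (background 1.21% higher and 1.43% lower) it was 0.13. The shallow unnamed clusters 10 and 14 gave 1 and 6 members to compare at 1 month, none of them 2-fold apart, where 4.48% of genes in cluster 10 were that much higher and 3.20% lower, and 4.86% of genes in cluster 14 higher and 3.24% lower.

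Gstp1 differed more between the ages than between the genotypes. Over all kept cells it was at 163 CPM in Vldlr-/- and 161 CPM in WT at 1 month, and at 23.3 CPM in Vldlr-/- and 27.3 CPM in WT at 2 months. Gstp1 has close copies, Gstp2 and Gstp3, so reads could be shared among them. In RPE-like cells it was at 213 CPM in Vldlr-/- and 215 CPM in WT at 1 month, against 18.0 CPM in Vldlr-/- and 25.3 CPM in WT at 2 months. The RPE-like log2 ratio of Vldlr-/- to WT was -0.01 (-0.44 to 0.41) at 1 month and -0.49 (-0.78 to -0.21) at 2 months. In B-like cells at 1 month it was 0.58 (0.22 to 0.95). Of 11 comparisons that counted Gstp1 well enough, 4 were higher and 7 lower in Vldlr-/-. Age cannot be told apart from the software version, and RPE-like depth and cluster shares differed between the ages too.

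Of 104 other genes of these pathways, 83 could be compared in RPE-like cells at 2 months, 42 higher and 41 lower in Vldlr-/-, with a median of 0.01. At least 2-fold apart were 2 higher and 2 lower, where 3.09% of all genes were that much higher and 1.02% lower. At 1 month 2 of 45 were that much lower, where 2.67% of all genes were that much lower and 3.33% higher. By any amount, 39.8% of all genes were lower in Vldlr-/- RPE-like cells at 2 months, the share to set beside the counts below. No gene of these lists passed 2-fold to one side at each age. Txnip, the inhibitor that binds thioredoxin, was at 13.1 CPM (104 UMIs) in Vldlr-/-, against 437 UMIs in the larger WT total, a log2 ratio of -1.19 (-1.52 to -0.89), and glutaredoxin Glrx at 1.26 CPM (10 UMIs) in Vldlr-/- and 2.81 CPM (41 UMIs) in WT (-1.11). Of the 10 thioredoxin and glutaredoxin genes listed, these included, 2 were higher and 8 lower. The phagocyte oxidase subunit Cybb was at 3.89 CPM (31 UMIs) in Vldlr-/- and 0.480 CPM (7 UMIs) in WT (2.94, 1.81 to 4.45), while its partner Cyba was at 31.0 CPM in Vldlr-/- and 31.2 CPM in WT. Cybb is also expressed by macrophages, whose 9 markers summed to 191 CPM in Vldlr-/- and 182 CPM in WT RPE-like cells, with none at 0. Nnt, the mitochondrial transhydrogenase that makes NADPH, was counted by 18 UMIs in Vldlr-/- and 15 in WT (1.13, 0.06 to 2.23), and of 9 NADPH supply genes 8 were higher in Vldlr-/-, among them Taldo1 of the pentose phosphate pathway, at 795 CPM in Vldlr-/- and 688 CPM in WT.

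The remaining lists held no gene past 2-fold in RPE-like cells at 2 months. Of the other glutathione transferases 8 were higher and 6 lower in Vldlr-/-. Gsta3 was at 52.4 CPM in Vldlr-/- and 27.4 CPM in WT (0.93, 0.73 to 1.13), and the mitochondrial and peroxisomal transferase Gstk1 at 14.2 CPM in Vldlr-/- and 7.55 CPM in WT (0.91). Among other genes of glutathione turnover and transport, 7 higher and 5 lower, the glutathione-breaking enzyme Ggct was at 7.66 CPM in Vldlr-/- and 4.12 CPM in WT (0.90), and Ggt7 at 0.879 CPM in Vldlr-/- and 1.72 CPM in WT (-0.89, with an interval that includes 0). Of other peroxide-related genes, 7 higher and 8 lower, the stress sensor Sesn2 was at 7.28 CPM in Vldlr-/- and 11.7 CPM in WT (-0.67), and the mitochondrial carrier Ucp2 at 242 CPM in Vldlr-/- and 332 CPM in WT (-0.46). Other Nfe2l2 targets counted 4 higher and 9 lower, with Osgin1 at 8.79 CPM in Vldlr-/- and 5.56 CPM in WT (0.66) and Abcb6 at 5.40 CPM in Vldlr-/- and 7.27 CPM in WT (-0.42). Of 8 partners and repressors 5 were higher and 3 lower, with the repressor Bach2 counted by 175 UMIs in Vldlr-/- and 184 UMIs (12.6 CPM) in WT (0.80) and Mafk at 2.13 CPM in Vldlr-/- and 1.51 CPM in WT (0.51).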

How the data were processed

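Per the file headers the deposited values were raw UMI counts per gene and barcode, written by Cell Ranger (6.0.2 at 1 month, 7.0.1 at 2 months); Cell Ranger 3.0, Seurat 4.0 and mm9 stand in the submitters' processing notes instead. The sources used here do not say whether intronic reads entered the counts. Coordinates come from GENCODE M21 on GRCm38, which held 32158 of the 32285 identifiers and all 34 members.

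A barcode was kept if it had 300 or more genes and no more than 30% of its UMIs were mitochondrial: 1819 of 2073 (Vldlr-/-, 1 month), 1549 of 1696 (WT, 1 month), 1140 of 1634 (Vldlr-/-, 2 months) and 2047 of 2540 (WT, 2 months), with median depths of 5084, 6036, 9029 and 8021 UMIs. Scrublet marked 26 of 6555 barcodes (0.397%), which were removed. That is so few that the caller cannot be said to have worked, and doublets may remain. Vldlr-/- libraries shared 1 barcode, and no other pair shared any. With scanpy 1.11.5, counts were scaled to 10000 per cell, and 2000 variable genes without the 34 members and 104 related genes gave 30 components, 15 neighbours and 28 Leiden clusters (resolution 1.0, leidenalg 0.10.2), with no integration. A cluster was named "X-like" when at least 3 and over 60% of its best class's markers were detected in at least 20% of its cells at 2-fold over the rest. A shallow cluster with none of those markers among its leading genes stayed unnamed, as did one with more leading markers of another class. The rule was set after the clusters were seen, and 7 clusters stayed unnamed. Among them was cluster 10, shallow but with 9 of 9 rod markers detected. Its 133 Vldlr-/- and 63 WT cells at 1 month are outside the rod-like values.

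Counts were summed per class and library and scaled to CPM. Log2 ratios used 0.5 added counts, for genes with at least 30 UMIs over both libraries and classes with at least 30 cells in each, with exact Poisson and conditional binomial 95% intervals. A member was counted as apart at 2-fold. The calculation was tested on simulated data. Alternatives changed the barcode filters, the scaling, the UMI minimum, the fold, the added counts, cell depth, free RNA, the clustering, doublet removal and the RPE-like barcodes included. Members and lists were chosen with earlier results of these data known. Values in each library of the class were given for members 2-fold apart with an interval leaving out 0, for members at least 4 times the median of other classes in every library, for any member 1.5-fold to one side at each age in RPE-like cells (there was none), and for Nfe2l2, Keap1, Hmox1, Nqo1, Srxn1, Txnrd1, Gclc and Gclm. Up to 2 genes of each other list were named, those with the largest ratio in RPE-like cells at 2 months. Gsr in small classes, Mgst1, Gpx4, Prdx6, Gstm5 and Prdx4 were chosen after their values were seen. The values of 1 alternative on RPE-like barcodes are not reported here.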

Additional observations from a re-analysis of the deposited data

Results flagged for a closer look

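Some members lay at least 1.5-fold apart in opposite directions in different cell classes or ages, each with an interval that leaves out 0. None of these differences between classes or ages was itself tested, and with 1 library per group none has a replicate check. Gsr had log2 ratios of Vldlr-/- to WT of 0.74 in fibroblast-like cells at 1 month, 0.90 in RPE-like cells and 0.86 in endothelial-like cells at 2 months, but -2.41 in cluster 7 and -0.63 in T-like cells at 1 month. With cells thinned to equal depth the fibroblast-like ratio of Gsr was 0.06 and the T-like ratio -0.57, both under 1.5-fold. Hmox1 was at 0.67 in RPE-like and -1.38 in endothelial-like cells at 2 months, and at 0.28 among Malat1-rich RPE-like barcodes. The endothelial-like ratio of Hmox1 rested on 14 UMIs in Vldlr-/- and 23 in WT. Those in WT came from very few cells, a spread between cells that the interval does not cover. Keap1 was at -0.65 in cluster 7 at 1 month (-0.56 with the highest Scrublet scores removed) and 0.66 in endothelial-like cells at 2 months. Mgst1 was at -0.70 in RPE-like cells and 0.62 in fibroblast-like cells at 1 month, and 0.70 in fibroblast-like cells at 2 months. The RPE-like Mgst1 ratio was -0.57 among Malat1-poor barcodes, with an interval that includes 0, and -1.20 in barcodes with at least 1000 genes, and the 1-month fibroblast-like one was 0.40 with thinned cells. Nqo1 in fibroblast-like cells was at -0.73 at 1 month and 0.62 at 2 months (0.47 with thinned cells).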

How the results depend on the processing

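No paired analysis was possible because each group was 1 library and the labels give no replicate numbers. In RPE-like cells at 1 month the count of members 2-fold apart was 1 as reported. It was 2 with a minimum of 10 UMIs or with cells thinned to equal depth, 0 with a minimum of 100 UMIs, with the members among the clustering genes or at Malat1 of 1000 CPM or more, and 7 of 23 at 1.5-fold, where 21.3% of all genes were that far apart in either direction. At 2 months it was 2, and became 0 with a minimum of 100 UMIs or thinned cells, 5 of 34 at 1.5-fold (12.9% of all genes), and 1 with 2 counts added, members among the clustering genes, resolution 2.0, either Malat1 split or equally weighted clusters. In fibroblast-like cells the count of 0 became 4 of 34 (1 month, 12.0% of all genes) and 2 of 33 (2 months, 14.3%) at 1.5-fold, 1 with free RNA subtracted (1 month) and 1 with thinned cells (2 months). The RPE-like median at 2 months moved to 0.11 at Malat1 of 1000 CPM or more, and the fibroblast-like median at 2 months to 0.09 with thinned cells. The RPE-like Gpx3 ratio at 2 months read 3.37 with free RNA subtracted. No Gpx3 was left in WT there, so that value rests on the added counts. The causes of the other changes were not tested. Of 369 values of single members under alternatives, 349 stayed inside their counting interval. No RPE-like value at 1 month was possible at resolution 2.0, where under 30 cells of a library were named. In other classes the count moved from 3 to 1 in endothelial-like cells (minimum of 100 UMIs, thinned cells, or without the Penk barcode) and to 6 of 31 at 1.5-fold (17.6% of all genes). In macrophage-like cells it moved from 1 to 0 with a minimum of 100 UMIs and to 4 of 24 at 1.5-fold (24.2%). In mural-like cells it moved from 0 to 2 with a minimum of 10 UMIs or, of 25, at 1.5-fold (19.4%), and to 1 without the Penk barcode. In rod-like cells it moved from 2 to 0 with a minimum of 100 UMIs, and to 1 with 2 counts added or thinned cells. In cluster 7 it moved from 1 to 2 with a minimum of 10 UMIs and to 3 of 25 at 1.5-fold (14.2%). The 5 alternatives on read-collecting loci, cluster 0, cluster weights, cluster 17 and Penk barcodes were chosen after seeing the data.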

Other observations

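Outside the 34 members and the rule for named genes, Nox4, an oxidase that makes hydrogen peroxide, was counted by 32 UMIs (21.4 CPM) in Vldlr-/- and 1 UMI (1.08 CPM) in WT endothelial-like cells at 2 months, a log2 ratio of 3.75 with an interval of 1.73 to 9.66. The small Maf gene Maff was at 54.9 CPM in Vldlr-/- and 156 CPM in WT in the same cells (-1.50, -1.92 to -1.11). In macrophage-like cells the aminopeptidase Lap3 was at 101 CPM in Vldlr-/- and 25.1 CPM in WT (1.95, 1.08 to 3.07). In fibroblast-like cells at 1 month the glutathione-cleaving enzyme Ggt5 was at 18.8 CPM in Vldlr-/- and 5.27 CPM in WT (1.79, 0.92 to 2.87). These genes were chosen after their values were seen. In cluster 17, an unnamed cluster led by Pmel and Cox8b with 15 cells in Vldlr-/- and 97 in WT at 2 months, Gsr was at 104 CPM in Vldlr-/- and 47.6 CPM in WT.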
